A study of Mus musculus with 2 samples.

Results

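The cytosolic ribosomal protein genes are the genes whose symbol starts with Rpl or Rps followed by a digit, together with Rplp0, Rplp1, Rplp2 and Rpsa. S6 kinase genes, pseudogenes with -ps in the symbol and paralogues whose symbol ends in l or l1 were left out. The rule found 82 of the 15239 gene rows. They comprise 47 large subunit genes, 34 small subunit genes and Rps19bp1, which carries a matching symbol but encodes a nucleolar regulator of Sirt1 and no ribosomal protein. Another 4 rows are copies, the retrogene Rps27rt and the annotated pseudogenes Rpl37rt, Rps3a2 and Rps3a3. Leaving these 4 and Rps19bp1 aside, 77 genes remain, and every one of the 82 passed the filter of a mean of at least 1 FPKM.

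The libraries were made from messenger RNA of basal cells of the mouse mammary gland, its outer epithelial layer, of normal disease state. Scramble control cells carried a short hairpin RNA of scrambled sequence and Cdk14-sh cells a hairpin against Cdk14, a kinase that pairs with cyclin Y. Genotype, strain, age and hairpin sequence are not given in the sources used here. On the material the labels disagree: MDA-MB-231, a line from a human breast tumour, stands in the design text and retinas in the extraction protocol, while the identifiers are mouse genes. With 1 library in each group there is no replicate check of any difference, and no test was made.

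Ribosomal proteins coat the ribosomal RNA of the large and the small subunit, which join on a messenger RNA to translate it. Cells keep their amounts in proportion, since most are needed as 1 copy in every ribosome. Their messenger RNAs start with a run of pyrimidines, the terminal oligopyrimidine (TOP) tract, through which mTORC1 and the protein Larp1 control their translation and stability, and their genes have spread many processed pseudogenes through the mouse genome.

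FPKM scales the fragments of a gene to its exonic length and to the library's total. The totals, inferred by taking the commonest of the lowest values as 2 reads, were 10186924 reads for Scramble control and 10177185 for Cdk14-sh. On this basis the members had between 90 and 33306 recovered reads in a library. Cdk14 was at 0.713 FPKM in Cdk14-sh against 2.06 in Scramble control, 34.5% of that level (25.6 to 45.3). All 10 basal markers were measured, with summed levels of 4452 FPKM in Scramble control and 3164 in Cdk14-sh, and 3 of them were higher in Cdk14-sh. Of 10 luminal markers 4 were measured, summed at 1208 and 644, with 1 higher. Endothelial markers (7 of 8 measured, 1 higher) summed to 198 and 38.9 FPKM and immune markers (5 of 8, 4 higher) to 81.7 and 355. Fibroblast markers (5 of 7, 4 higher) summed to 114 and 76.7 and proliferation markers (7 of 9, 5 higher) to 79.4 and 90.8. Single genes weigh heavily in these sums, with highest values in Scramble control of 104 FPKM for fibroblast and 76.8 for proliferation markers. The median fibroblast marker was at 3.25 FPKM in Scramble control and 8.81 in Cdk14-sh. For proliferation markers the medians were 0.0721 and 5.14 FPKM, and 4 were at least 2-fold higher. None of the markers measured was at 0 in either library, but neither was any other row of the table. The absence of 0 values therefore says nothing about the markers, and those not measured stay unknown. These marker levels also differed between the libraries, in both directions, and their part in the results was not tested. In bulk samples, fewer cells of a type and less RNA per cell cannot be told apart.

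Nearly all ribosomal protein genes were higher in the Cdk14-sh library, by amounts that mostly lay close together. Summed over the 82 members, the level was 16696 FPKM in Scramble control and 25443 in Cdk14-sh, a ratio of 1.52. They made up 4.603% of the summed FPKM of the table in Scramble control and 6.70% in Cdk14-sh. The log2 ratio, with 1 FPKM added to each value, was above 0 for 80 members, against 51.4% of the 12819 measured genes. At least 1.5-fold higher were 45 members (54.9%; background 25.3%), and at least 2-fold higher 6 members (background 14.3%). Less the running median of all genes over mean FPKM, 23 members (28.0%) were at least 1.5-fold higher, near the 24.6% of all genes so adjusted, and 3 at least 2-fold; 76 were above 0, against 49.9%. Less the running median over exonic length, 28 members (34.1%) were at least 1.5-fold higher, against 24.2%. As deposited, none was at least 1.5-fold lower, where 24.5% of measured genes were.

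At 2-fold the share of members was smaller than the background. At 1.5-fold it was larger as deposited and close to the background once the trend over mean FPKM was taken off. The median log2 ratio of the members was 0.61, with an interquartile range of 0.33 and an SD of 0.27. Across all measured genes the median was 0.02, the interquartile range 1.16 and the SD 1.02. Among the 620 other genes whose mean reached 100 FPKM, 58.4% were higher and the median log2 ratio was 0.14. Their interquartile range was 0.77 and their SD 0.71, narrower than over all measured genes and wider than among the members. Among the 502 of these that code for protein, 53.4% were higher and the median was 0.07. The 95% counting interval of the fold, an exact binomial interval for counting error only, lay wholly above 1 for 80 members, against 35.9% of measured genes with a length. It contained 1 for Rpl35a and Rps27rt. The interval narrows as reads increase, and the median level in Scramble control was 169 FPKM for members and 7.63 for all measured genes. The shares are therefore not set at like levels.

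**Figure D1:**
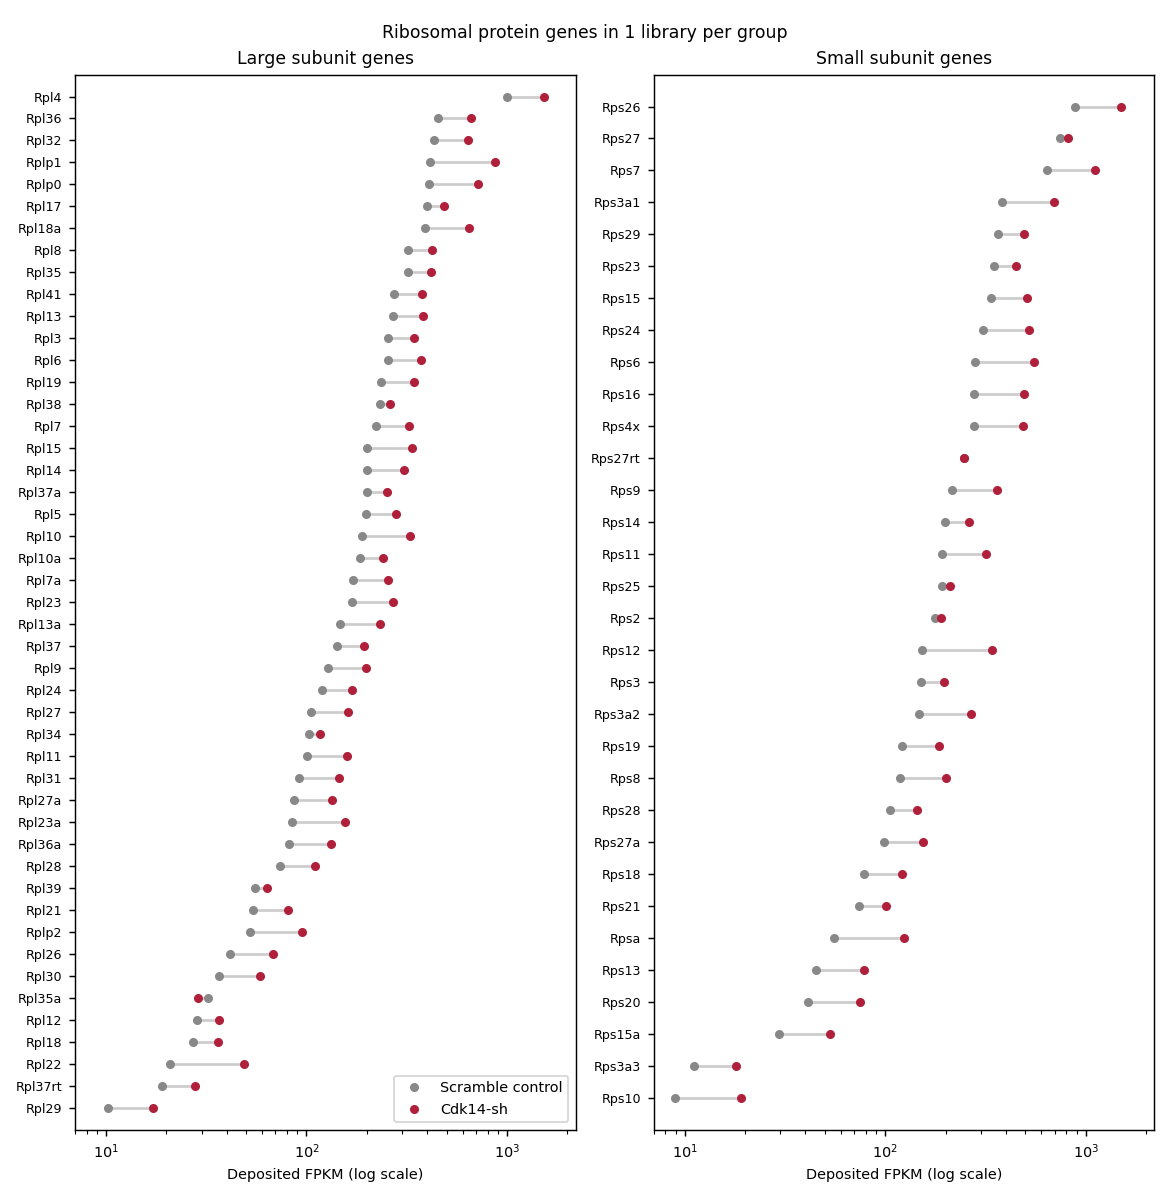
Deposited FPKM of the large subunit genes (left) and all but 2 of the small subunit genes (right) on a log axis, ordered by level in Scramble control. Grey points are the Scramble control library and red points the Cdk14-sh library, 1 library each. The red point lies to the right of the grey one for all but Rpl35a and Rps27rt, and levels span 8.97 to 1002 FPKM in Scramble control.

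The order of the genes by level was much the same in both libraries. Rpl4, which lines the tunnel through which the new peptide leaves, had the highest level of the members, with 1002 FPKM in Scramble control and 1536 in Cdk14-sh. Rps26, at the channel where the messenger RNA exits, stood next at 883 and 1503 FPKM. Rps7, a small subunit protein that is also known to bind Mdm2, was at 643 and 1113 FPKM, and Rpl36 of the large subunit at 453 and 660. The zinc-binding small subunit protein gene Rps27 had 740 FPKM in Scramble control, above Rps7 and 816 in Cdk14-sh, below Rps7 and Rplp1. At the low end of Scramble control stood Rps10 at 8.97 FPKM and Rpl29 at 10.3. With the FPKM of the pseudogenes named after them added, Rps10 was at 113.5 and Rpl29 at 21.3 in Scramble control. Spearman's rho of the FPKM values between the libraries was 0.98 over 82 members, which share gene models and copies in both libraries. Levels are per exonic base of all annotated transcripts of a gene, and levels of different members are comparable only within that limit.

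Each gene's part of the summed FPKM of all 82 members, the copies and Rps19bp1 included, was also compared. It was higher in Cdk14-sh for 44 members and lower for 38. Rps27 had 4.43% of the sum in Scramble control and 3.21% in Cdk14-sh. Rplp1 went the other way, with 2.48% and 3.41%, and Rps26 had 5.29% and 5.91%. For Rpl4 the part was 6.002% and 6.036%.

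Small subunit genes had a somewhat higher median ratio and a wider spread than large subunit genes. Summed large subunit levels were 9040 FPKM in Scramble control and 13546 in Cdk14-sh, 1.498-fold higher. The small subunit sums were 7619 and 11807 FPKM, 1.55-fold higher, so the summed level of small to large subunit genes was 0.843 in Scramble control and 0.872 in Cdk14-sh. The median log2 ratio was 0.57 for large and 0.73 for small subunit genes, a difference of 0.17. At least 1.5-fold higher were 21 of 47 large subunit genes (44.7%) and 23 of 34 small subunit genes (67.6%), beside the background of 25.3% given above.

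The subunits overlapped over nearly their whole range. Large subunit log2 ratios ran from -0.17 to 1.17 with an interquartile range of 0.23, and small subunit log2 ratios from just under 0 (Rps27rt) to 1.15 with an interquartile range of 0.38. Of the 20 highest members 13 were small and 6 large subunit genes, yet the 20 lowest held 9 small and 11 large subunit genes. With 1 library a group the difference between the subunits has no test, and genes of a subunit are not replicates.

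Members differed from each other beyond counting error. Pooled over their recovered reads the fold was 1.54 (1.53 to 1.55). The counting interval of 26 members lay above this pooled fold, that of 28 below it, and that of 28 contained it. Small subunit genes were split, with 17 above, 10 below and 7 containing it, and large subunit genes had 8 above, 18 below and 21 containing it.

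**Figure D2:**
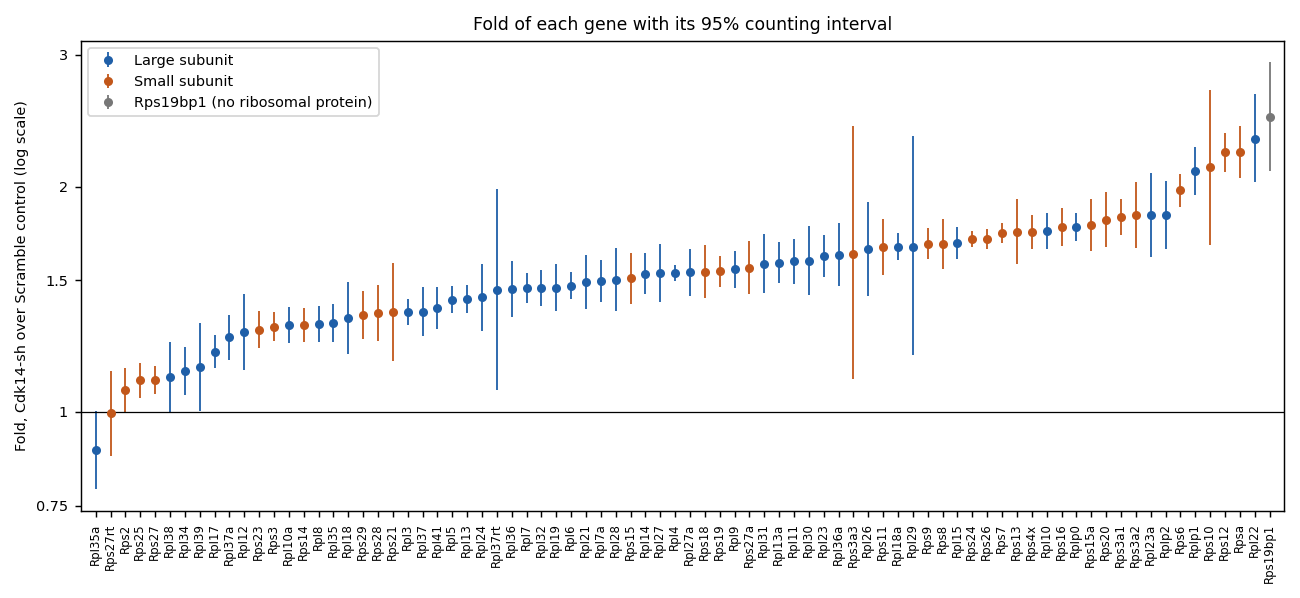
Fold of FPKM, Cdk14-sh over Scramble control, for 80 of the 82 members in rising order on a log axis, with vertical lines for 95% counting intervals and colours for the subunit. Folds run from 0.888 for Rpl35a to 2.48 for Rps19bp1. Small subunit genes stand at both ends of the order.

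In the large subunit, the genes of the P stalk, the arm that recruits the translation factors that hydrolyse GTP, were among the highest. Rplp1, an acidic protein of the stalk's tip, had 414 FPKM in Scramble control and 869 in Cdk14-sh, 2.10-fold higher (1.95 to 2.26). Its partner Rplp2 had 52.1 and 95.5 FPKM (1.83-fold, 1.65 to 2.04). Rplp0, which anchors both to the ribosome, had 408 and 721 FPKM (1.77-fold, 1.69 to 1.84). Rpl12, at the base of the stalk, was lower in the order with 28.6 and 36.5 FPKM (1.28-fold, 1.14 to 1.44). The intervals of the stalk proteins proper do not overlap that of Rpl12.

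Rpl22 had the highest fold of any ribosomal protein gene. It encodes an RNA-binding protein of the large subunit that is dispensable for growth in mice but needed for some T cells. The gene lies on the plus strand of chromosome 4 from 152325742 to 152334071 (GRCm38). It was at 20.98 FPKM in Scramble control and 48.6 in Cdk14-sh, 2.32-fold higher (2.03 to 2.66). Its paralogue Rpl22l1, which in mouse is repressed by Rpl22, was at 78.0 and 92.6 FPKM, 1.19-fold higher (1.08 to 1.31). The counting interval of the fold of Rpl22 lies above that of Rpl22l1.

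Genes around the peptide exit tunnel spread widely. All 8 were higher, with a median log2 ratio of 0.58. Rpl23a, at the tunnel's rim, had 85.0 FPKM in Scramble control and 156 in Cdk14-sh (1.83-fold, 1.61 to 2.08), but 59.7% of its exonic bases are shared with Tlcd1 on the opposite strand and the value is uncertain. Rpl39, a small protein in the tunnel wall, had 55.4 and 63.7 FPKM (1.15-fold, 1.00 to 1.32). Rpl17, also of the tunnel wall, had 401 and 483 FPKM (1.20-fold, 1.14 to 1.27). Rpl35 at the rim had 319 and 420 FPKM (1.31-fold, 1.24 to 1.39), with 66.2% of its exonic bases shared with genes on the other strand.

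The proteins closest to peptide bond formation and the L1 stalk were in the lower part of the order. Rpl3 (254 and 345 FPKM, 1.36-fold) and Rpl8 (322 and 423 FPKM, 1.31-fold) reach towards the peptidyl transferase centre, and Rpl10a (186 and 242 FPKM, 1.31-fold) forms the L1 stalk, which guides the leaving tRNA. Rpl10, which joins the large subunit last during assembly, was higher in the order at 188 and 329 FPKM (1.75-fold, 1.65 to 1.85). The 5S RNP proteins Rpl5 and Rpl11, which also bind Mdm2, were at 199 and 281 FPKM (1.41-fold, 1.36 to 1.47) and at 100.1 and 159 FPKM (1.59-fold, 1.48 to 1.70).

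At the low end of the large subunit, Rpl35a was the single standard gene with a lower value in Cdk14-sh, 32.4 FPKM in Scramble control and 28.8 in Cdk14-sh (fold 0.888, 0.788 to 1.00), with an interval that contains 1. It lies on chromosome 16 from 33056453 to 33060189. Rpl38, which in mouse is needed for the translation of Hox messenger RNAs, had 234 and 260 FPKM (1.11-fold, 1.00 to 1.24). Rpl34 had 103 and 117 FPKM (1.13-fold, 1.05 to 1.22).

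In the small subunit, genes of the beak of the head were the highest group. Rps12 had 153 FPKM in Scramble control and 339 in Cdk14-sh, 2.22-fold higher (2.09 to 2.36), and lies on chromosome 10 from 23785183 to 23787275 on the minus strand. Rps10 had 8.97 and 19.1 FPKM (2.13-fold, 1.67 to 2.69). Rps27a, made as a fusion with ubiquitin that is then cut off, had 98.8 and 154 FPKM (1.56-fold, 1.44 to 1.69). Of the exonic bases of Rps12, 13.7% are shared with small RNA genes within it, and of those of Rps10, 20.6% with the readthrough gene RPS10-NUDT3.

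Proteins of the platform and the exit side of the messenger RNA channel ranged from high to low. Rpsa, also known as the laminin receptor, had 55.7 FPKM in Scramble control and 124 in Cdk14-sh (2.23-fold, 2.06 to 2.41). Rps26 came to 1.70-fold (1.65 to 1.75) from the levels above. Lower stood Rps28 (106 and 144 FPKM, 1.35-fold) and Rps14 (199.5 and 261 FPKM, 1.31-fold).

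On the entry side, where the helicase activity of the ribosome resides, the genes listed were Rps3 and Rps2, both low in the order. This list may not cover the entry side in full. Rps9 of the small subunit, which it leaves out, had 216 FPKM in Scramble control and 363 in Cdk14-sh (1.68-fold, 1.60 to 1.76). Rps3 had 151 FPKM in Scramble control and 196 in Cdk14-sh (1.3-fold, 1.24 to 1.36). Rps2 had 178 and 191 FPKM (1.07-fold, 1.00 to 1.15). In the head and the decoding centre, Rps15, Rps18 and Rps19 lay between 1.51-fold and 1.54-fold, and Rps23, which reads the codon and anticodon pair, was at 347 and 447 FPKM (1.29-fold, 1.22 to 1.36).

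Rps6, the substrate of the S6 kinases and a common readout of mTORC1 activity, had 279 FPKM in Scramble control and 552 in Cdk14-sh, 1.98-fold higher (1.88 to 2.08). Rps25, which internal ribosome entry sites need, had 191 and 210.5 FPKM (1.10-fold, 1.05 to 1.16). The level of Rps27 was 1.10-fold higher (1.06 to 1.15), and its retrogene copy Rps27rt was at 248 and 247 FPKM (fold 0.997, 0.874 to 1.13). The related gene Rps27l, which p53 induces, was at 109 and 136 FPKM (1.25-fold, 1.10 to 1.42).

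Members that in humans are mutated in Diamond-Blackfan anaemia, a failure of red cell production, resembled the members as a whole. Higher were 16 of 17 (94.1%, background 51.4%), and 9 at least 1.5-fold (52.9%, background 25.3%), with a median log2 ratio of 0.62. These shares are as deposited, with no trend over level taken off. Among ribosomal components that the symbol rule does not find, Fau, the precursor of a small subunit protein, had 543 and 690 FPKM (1.27-fold, 1.21 to 1.34) and the scaffold Rack1 had 68.8 and 94.97 FPKM (1.38-fold, 1.299 to 1.469). Of the paralogues left out, all 4 that were measured (Rps27l, Rpl7l1, Rpl36al and Rpl22l1) were higher, between 1.19-fold and 1.25-fold.

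As the members move together, the bases around their transcript starts were read from RefSeq windows (GRCm38.p6), which matched 60 members and 8058 other measured genes. A run of at least 8 pyrimidines within 15 bases on either side of the annotated start was found in 23 members (38.3%) and in 11.7% of the other genes. A C at the start followed by pyrimidines at the next 4 positions, the form of a TOP tract, was found in 13 members (21.7%) and in 2.37% of the others. The annotated start can lie some bases away from the one used in these cells. Shown are the windows with such a run from the 4 highest and the 4 lowest members that hold it, with the longest pyrimidine run in capitals.
Rps10 (chr17:27635230-27635259, minus strand): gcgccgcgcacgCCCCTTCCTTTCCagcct
Rps6 (chr4:86857353-86857382, minus strand): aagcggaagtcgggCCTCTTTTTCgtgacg
Rplp2 (chr7:141447636-141447665, plus strand): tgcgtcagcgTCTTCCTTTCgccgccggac
Rps15a (chr7:118116133-118116162, minus strand): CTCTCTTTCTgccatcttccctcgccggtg
Rpl39 (chrX:37085208-37085237, minus strand): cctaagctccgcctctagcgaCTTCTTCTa
Rpl34 (chr3:130730384-130730413, minus strand): cgCCTTCCCTgacgtacttcctgtccggcg
Rpl38 (chr11:114668565-114668594, plus strand): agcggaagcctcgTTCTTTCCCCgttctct
Rps27 (chr3:90213634-90213663, minus strand): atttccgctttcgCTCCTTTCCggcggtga

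The tract stood at both ends of the order: Rps10 was 2.13-fold higher and Rps27 1.10-fold. Members with a run of at least 8 had a median log2 ratio of 0.61, and those without had 0.59. In the 250 bases before the start, the motif CCGGAAG, the core bound by Ets factors such as GABP, was found on either strand in 18 of the 60 members (30.0%) and in 14% of the other genes. The motif GGGCGG, bound by Sp1, was in 45.0% of members and 61.4% of others. The palindrome CTCGCGAG was in 8.33% and 1.61%. The motif ATGGCGGC, part of the site of YY1, was searched over the whole window of 250 bases before and 50 after the start, and was in 6.67% and 5.67%. None of these motifs contains another. The median log2 ratio was 0.61 in members with CCGGAAG and 0.61 in members without. A match is a description of the letters and not a site. Shown are the 100 bases before the start of the 2 highest and the 2 lowest members with CCGGAAG there, in capitals.
Rps10 (chr17:27635245-27635344, minus strand): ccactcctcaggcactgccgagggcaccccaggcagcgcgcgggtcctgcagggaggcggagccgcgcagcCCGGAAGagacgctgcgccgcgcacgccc
Rps6 (chr4:86857368-86857467, minus strand): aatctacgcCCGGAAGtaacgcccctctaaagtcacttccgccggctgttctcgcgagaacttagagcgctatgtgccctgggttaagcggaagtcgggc
Rpl38 (chr11:114668480-114668579, plus strand): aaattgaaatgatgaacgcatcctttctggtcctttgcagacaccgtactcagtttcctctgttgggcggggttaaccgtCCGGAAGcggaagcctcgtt
Rps25 (chr9:44407614-44407713, plus strand): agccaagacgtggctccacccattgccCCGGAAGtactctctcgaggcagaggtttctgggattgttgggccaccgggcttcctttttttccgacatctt

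Other messenger RNAs known to carry a TOP tract were also mostly higher. Of 16 measured, 15 were above 0 (93.8%, background 51.4%), with a median log2 ratio of 0.41 against 0.02 over all measured genes. At least 1.5-fold higher were 5 (31.3%), a share near the background of 25.3%. The elongation factor subunits Eef1b2 (92.1 FPKM in Scramble control and 216 in Cdk14-sh, 2.34-fold, 2.19 to 2.51) and Eef1g (141 and 325 FPKM, 2.31-fold, 2.19 to 2.44) and the initiation factor subunit Eif3h (115 and 243 FPKM, 2.11-fold, 1.95 to 2.29) were highest. Lowest were the poly(A) binding protein gene Pabpc1 (159.9 and 150.05 FPKM, fold 0.939, 0.903 to 0.976), the translationally controlled protein gene Tpt1 (292 and 307 FPKM) and Naca of the nascent chain complex (39.4 and 46.2 FPKM).

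Genes that build ribosomes did not share the members' direction. Of 45 measured genes of ribosome assembly and RNA polymerase I, 18 were above 0 (40.0%, background 51.4%) and 27 below, with a median log2 ratio of -0.11. Highest were Bop1 of the large subunit processing complex (1.61 and 11.1 FPKM, 6.90-fold, 4.52 to 11.2), the polymerase subunit Polr1b (2.13 and 9.21 FPKM, 4.32-fold, 3.27 to 5.78) and the assembly factor Rpf1 (6.14 and 16.3 FPKM, 2.65-fold, 2.15 to 3.26). Lowest were Taf1a of the promoter selectivity factor (12.1 and 4.08 FPKM, 2.97-fold lower, 2.15 to 4.19), Sbds, which helps release Eif6 from new large subunits (139.9 and 57.5 FPKM, 2.44-fold lower, 2.21 to 2.68), and the polymerase subunit Polr1e (13.5 and 5.50 FPKM, 2.46-fold lower, 1.96 to 3.10). Mitochondrial ribosomal protein genes, which serve the separate ribosome of mitochondria, had 62 of 81 above 0 (76.5%, background 51.4%). At least 1.5-fold higher were 34 of them (42.0%, background 25.3%). Their median log2 ratio was 0.49, with an interquartile range of 0.78 against 0.33 for the cytosolic genes. No difference between these lists has a test.

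**Figure D3:**
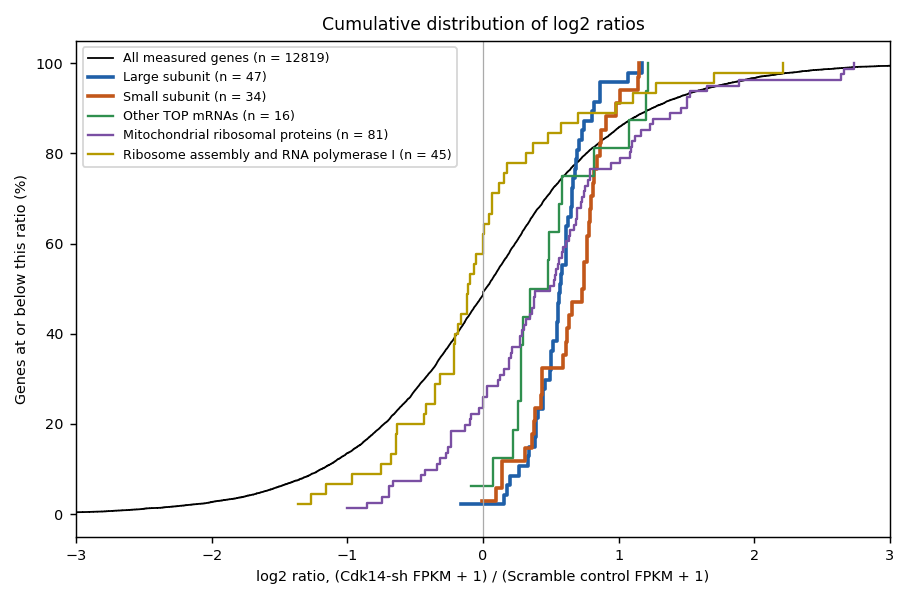
Cumulative share of genes at or below each log2 ratio, Cdk14-sh over Scramble control with 1 FPKM added, for all 12819 measured genes, both ribosomal subunits and 3 related lists. The subunit curves are steep and lie right of 0, with medians of 0.57 and 0.73, while the assembly list has its median at -0.11; the axis is limited to -3 to 3.

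Genes that signal to TOP messenger RNAs went in both directions. Of 14 measured genes of mTORC1 and TOP control, 8 were above 0 (57.1%, background 51.4%) and 6 below, with a median log2 ratio of 0.08. The mTORC1 inhibitor Tsc2 was at 15.2 FPKM in Scramble control and 5.60 in Cdk14-sh (2.72-fold lower, 2.37 to 3.14), the translation repressor Eif4ebp2 at 6.27 and 2.09 (2.997-fold lower, 2.22 to 4.04) and the RNA-binding protein gene Larp4 at 70.9 and 51.2 (1.39-fold lower, 1.32 to 1.46). Mlst8, a subunit of both mTOR complexes, was at 0.408 and 3.05 (7.47-fold higher, 3.82 to 17.5), the mTORC1 inhibitor Akt1s1 at 7.09 and 12.1 (1.70-fold, 1.33 to 2.16), and Mtor itself at 1.91 and 2.66 (1.39-fold, 1.07 to 1.83).

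Pseudogenes named after these genes also hold reads. The table lists 151 pseudogenes with -ps in the symbol that carry the name of 52 members, with summed levels of 3215 FPKM in Scramble control and 4549 in Cdk14-sh, a ratio of 1.41. For 47 of the 52 members the summed pseudogene value was higher in Cdk14-sh. Across those 52 members, Spearman's rho between the member's fold and that of its pseudogenes was 0.34, as a description, since copies can share reads. The recovered read numbers were whole in both libraries (within 0.02 reads) for 43.9% of members, 55.7% of measured genes and 84.7% of these pseudogenes. How reads that match several copies were counted remains not given in the sources used here. Whether the reads on pseudogene rows come from the members was not tested. Were such reads counted at every copy, sums of a member and its copies would hold some of them more than once.

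Over 25% of the recovered reads lay on pseudogenes for 5 members, Rps10, Rps2, Rpl29, Rpl35a and Rpl18, of which Rpl35a and Rps2 stand at the low end of the order. On the pseudogenes lay 44.9% of the recovered reads of Rpl35a and its copies in Scramble control. With the copies added, Rpl35a had 2110 reads in Scramble control and 2260 in Cdk14-sh, a fold of 1.07 (0.985 to 1.17). For Rps2 the share was 61.5%, and with the copies it had 8612 and 10761 reads, 1.25-fold higher (1.201 to 1.302). Of the reads of Rps10 and its copies 71.4% lay on the copies, and it was at 2.13-fold (1.88 to 2.42) with them. Rpl29 went from 1.66-fold to 1.499-fold and Rpl18 from 1.34-fold to 1.41-fold. For Rpl22 and Rps27 the share on copies was 0.320% and 0.279%, and with them the folds were 2.31 and 1.10. With the copies added for every member, 81 of 82 were higher and the median fold was 1.51. The 30 members without such pseudogenes had a median fold of 1.46, and the 52 with them 1.55. Among the 30 are Rps19bp1, the copies Rps27rt, Rpl37rt, Rps3a2 and Rps3a3, and Rps3a1, whose copies carry no -ps. Pseudogenes under other symbols were not searched, so the 30 are not genes free of copies.

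**Figure D4:**
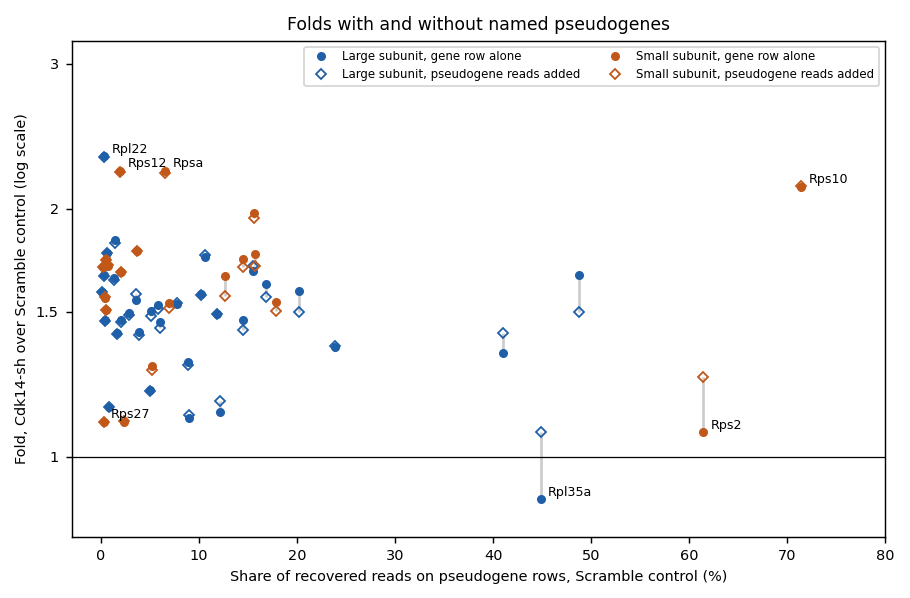
Fold, Cdk14-sh over Scramble control on a log axis, for the 52 members with pseudogenes named after them. The horizontal axis is the pseudogenes' share of the recovered reads of gene and pseudogenes in Scramble control. Filled points are the gene row alone, open diamonds the reads of gene and pseudogenes together, and grey lines join both values of a gene. Rpl35a moves from 0.888 to 1.07 and Rps2 from 1.07 to 1.25.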

How the data were processed

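The authors deposited 1 table of FPKM values with a column for each library; Bowtie 0.12.2, featureCounts and Subread 1.5.1 are the tools in the submitters' processing notes, which also list mm8 and GRCm38 with no role. The use of strand and of multiply mapped reads in counting remain not given in the sources used here. Each column name abbreviates 1 sample title. Members and gene lists were chosen with earlier results of these data known. The genes named are those of fixed roles, and the 5 highest and 5 lowest log2 ratios of each subunit. Also named are the 5 highest levels, and up to 3 highest and 3 lowest of related lists. Rpl29, Rps9, Rpl22l1 and genes named for an overlap or a copy were added after their values were seen. A few genes that this rule names are not reported here. The group of genes at 100 FPKM, the limit of 25% of reads on copies and the sequence motifs were also chosen after values were seen. A gene counts as measured from a mean of 1 FPKM; where several rows carried its symbol, that with the highest mean stood for it (12819 symbols).

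Reads were recovered from FPKM and exonic lengths of GENCODE M21 (GRCm38), with the commonest of the lowest values taken as 2 reads, counted as 1 fragment. The 95% intervals follow Clopper and Pearson, exactly, for the part of a gene's fragments found in Cdk14-sh, expressed as a ratio. Only counting error is covered. The recovery of totals and the intervals were tested on simulated fragments. These were drawn with the same lengths and the same 2 reads a fragment, so an error in either would not show. Calculations used Python 3.11.15, pandas 2.3.3 and SciPy 1.17.1. Alternatives were other pseudocounts, filters and scalings, running medians over length or level, members without overlaps and summed symbols; 2 more, chosen after seeing the data, left out the copies and Rps19bp1 or added the pseudogenes.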

Additional observations from a re-analysis of the deposited data

How the results depend on the processing

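Each of the 8 results on the members was recomputed under 13 alternatives, and no log2 value changed sign. Counts have no direction and are called only same or moved. All 8 values stayed the same with no filter, with a mean of at least 5 FPKM and with summed symbols. Every member passes these filters, so the filters could not change the values. The difference of the subunit medians stayed between 0.12 and 0.19, and 76 or more members were higher wherever all members were kept. A value is called moved where it changed by over 0.10 on the log2 scale, the median counting error of a member, and a count where it changed over 1.5 times. Less the running median over exonic length, 28 members were at least 1.5-fold higher, and the log2 values were 0.50 for the members' median, 0.44 for large and 0.60 for small subunit genes and 0.50 for the summed FPKM. Less the running median over mean FPKM, 23 members were at least 1.5-fold and 3 at least 2-fold higher, and the log2 values were 0.44, 0.42, 0.55 and 0.43 in the same order. The cause was not tested. Of the 45 members that share no exonic base with another gene, 43 were higher, 26 at least 1.5-fold and 3 at least 2-fold; here fewer members were counted. Scaling Cdk14-sh to a median log2 ratio of 0 shifted all genes by -0.02, and rescaling to TPM by -0.07. No paired analysis was possible because each group held 1 library. Rps3a3, Rpl29 and Rpl37rt had the fewest reads and the widest intervals.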

Other observations

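Ribosomal protein genes often serve as references in quantitative PCR, so 18 common reference genes, 4 of them members, were read side by side. Of these 14 were above 0 (77.8%, background 51.4%) and the median log2 ratio was 0.50. Rplp0, given above at 1.77-fold, Rpl13a (147 FPKM in Scramble control and 232 in Cdk14-sh, 1.58-fold), Rps18 (78.5 and 121 FPKM, 1.54-fold) and Rpl19 (236 and 345 FPKM, 1.47-fold) are the members among them. The phosphoglycerate kinase gene Pgk1 was at 33.2 and 57.8 FPKM (1.74-fold, 1.53 to 1.98). The TATA-binding protein gene Tbp was at 4.80 and 3.47 FPKM (1.38-fold lower, 1.17 to 1.64) and the transferrin receptor gene Tfrc at 27.9 and 22.8 (1.22-fold lower, 1.11 to 1.35). Beta-actin (Actb) was at 1324 and 1618 FPKM (1.22-fold, 1.20 to 1.25). Gapdh was listed at 0.333 and 2.20 FPKM (6.60-fold, 2.95 to 17.3), below the other glycolytic reference Pgk1 in both libraries. Its value in Scramble control lies under the 1 FPKM used as limit for the mean. How reads that match several copies were counted is not given, so its level and fold are uncertain.

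The S6 kinase genes, which the symbol rule leaves out, went in both directions, with 3 of 8 measured above 0 (37.5%, background 51.4%). Rps6kb1, which encodes the S6 kinase of the mTORC1 pathway, was at 20.6 FPKM in Scramble control and 20.03 in Cdk14-sh, and Rps6kb2 at 9.997 and 12.8 (1.28-fold, 1.09 to 1.51). Among the p90 kinases and their mitogen- and stress-activated relatives, Rps6ka3 was at 9.77 and 2.50 (3.90-fold lower, 3.15 to 4.88), Rps6ka2 at 1.93 and 0.291 (6.62-fold lower, 3.77 to 12.1) and Rps6ka5 at 0.758 and 2.77 (3.65-fold higher, 2.62 to 5.18).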
